A study of Homo sapiens with 6 samples.

Results

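The genes described here are the interleukins, chemokines and their receptors of a human bladder carcinoma line, compared by RNA sequencing between UC3DDP and UC3. Members were the protein-coding genes whose symbols carry the interleukin or chemokine stem or that of their receptors. LIF, LIFR, OSMR and the colony-stimulating factors themselves were added. Receptors named after the colony-stimulating factors, such as CSF2RA, fall outside the rule. The rule used names and no measured value, and it took 58 of the 18936 genes in the table (13406 of them protein-coding). UC3 is the parental line, usually written UM-UC-3. UC3DDP is its resistant subline, which the study calls UC3-R and selected over about a year in repeated cycles of rising gemcitabine and cisplatin with drug-free recovery between them. The labels name the subline only as UC3DDP, give no dose or time, and list the same cell line for every sample. Each line had 3 libraries, and the labels do not say whether these came from separate cultures, so the p-values measure the spread between libraries, which may be technical. A single selected subline was compared with 1 parental line, and selection cannot be told apart from any other difference between these cultures. In bulk RNA, fewer cells that express a gene and less RNA per cell cannot be told apart.

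Interleukins, chemokines and colony-stimulating factors are secreted proteins with which cells signal to their neighbours. Most interleukins bind receptors built from a ligand-binding chain and a shared signalling chain, and many of these work through Janus kinases (JAK) and STAT transcription factors, while receptors of the interleukin 1 and interleukin 17 families use adaptors that lead to NF-kappaB. Chemokines draw leukocytes along a gradient by way of receptors coupled to inhibitory G proteins. In the bladder, urothelial cells release cytokines during infection, and instilled BCG, an established treatment of bladder cancer, brings cytokines and chemokines into the urine.

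The depth was 16757610 to 17254683 counts in the UC3DDP libraries and 19467228 to 20803970 counts in the UC3 libraries. UC3DDP replicate 1 stood apart. Within UC3DDP, the chi-square statistic per degree of freedom between libraries was 24.1 for replicates 1 and 2, 14.3 for replicates 1 and 3 and 3.69 for replicates 2 and 3, against 1.49 to 1.90 within UC3. In UC3DDP replicate 1, 53 genes had at least 10 counts and at most 1 count in the other 5 libraries together, while each of the other libraries had 0 such genes. Of these 53 genes, 1 was a member, CXCL12. Genes with higher GC content were also higher in UC3DDP. The median log2 difference from the UC3 mean was taken in 5 classes of genes by transcript GC content. The highest class exceeded the lowest by 2.17, 1.58 and 1.72 in UC3DDP replicates 1, 2 and 3. The values in the UC3 libraries were -0.02, 0.00 and 0.02. As every library was set against the UC3 mean, the UC3 values must centre on 0. They cannot show which line carries the trend. Each call is therefore given with a second value that takes the trends with transcript GC content and length out. This is written below as the GC-adjusted value. Results that rest on UC3DDP replicate 1 are given without it where such a value was available. The cause of the trend was not tested.

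Of 14 urothelial markers, 9 were in the table. They summed to 351 to 435 CPM (counts scaled to the size of the library) in UC3DDP and 224 to 232 CPM in UC3. KRT18, a keratin of simple epithelia, had 5589, 4543 and 4560 counts in UC3DDP and 2974, 2941 and 3253 counts in UC3. Its log2 fold change was 0.93 (GC-adjusted 0.22). KRT8 was at 0.19 (GC-adjusted -0.52) and KRT7 at 1.47 (0.62). GATA3 was at 0.96 (0.38), PPARG at 0.21 (1.04) and FOXA1 at 0.74 (0.36). TP63 had 34, 40 and 36 counts in UC3DDP and 2, 0 and 1 counts in UC3 (5.26, GC-adjusted 5.78). The uroplakins, which define differentiated urothelium, were near the limit of detection: UPK1A had 6, 5 and 6 counts in UC3DDP and 5, 8 and 4 counts in UC3. Of 15 leukocyte markers, CD14, ITGAM and LAPTM5 (3) were in the table, and LAPTM5 had 100, 63 and 46 counts in UC3DDP and 3, 2 and 2 counts in UC3. ITGAM overlapped between the lines, with 10, 13 and 9 counts in UC3DDP and 12, 10 and 9 counts in UC3. The summed level of the 3 leukocyte markers was 3.44 to 7.01 CPM in UC3DDP and 0.624 to 0.843 CPM in UC3. Of 7 fibroblast markers, 6 were in the table and summed to 16.1 to 26.2 CPM in UC3DDP and 5.33 to 5.95 CPM in UC3. All 5 endothelial markers were present, at 8.43, 2.62 and 2.37 CPM in UC3DDP replicates 1, 2 and 3 and at 0.384 to 0.794 CPM in UC3. UC3DDP replicate 1 was the highest library for each of these 3 lists and for the urothelial list. Their part in the results below was not tested.

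Promoters of selected members are shown first, as the 150 bases before the start of transcription (RefSeq, GRCh38.p14). The neutrophil-attracting chemokines were taken because they are compared with one another below. IL1A and IL11 were taken because they were among the genes with large fold changes. Other genes with large fold changes, such as IL32, IL13RA2 and IL1RAPL1, are not shown. Of the 58 members, 41 had a promoter in the RefSeq table, and CCL2 was not among them. Capitals mark matches to the AP-1 motif TGANTCA and to the NF-kappaB motif GGAATTTCC, each searched on both strands. Positions are counted back from the start of transcription, with -1 the base just before it.
IL1A, chr2:112784494-112784643, minus strand: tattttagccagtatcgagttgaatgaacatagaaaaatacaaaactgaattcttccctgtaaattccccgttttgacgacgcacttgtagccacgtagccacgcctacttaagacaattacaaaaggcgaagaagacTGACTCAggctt
IL11, chr19:55370464-55370613, minus strand: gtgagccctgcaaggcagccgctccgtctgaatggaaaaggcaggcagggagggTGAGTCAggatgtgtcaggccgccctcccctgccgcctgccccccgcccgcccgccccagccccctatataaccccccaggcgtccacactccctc
CXCL8, chr4:73740419-73740568, plus strand: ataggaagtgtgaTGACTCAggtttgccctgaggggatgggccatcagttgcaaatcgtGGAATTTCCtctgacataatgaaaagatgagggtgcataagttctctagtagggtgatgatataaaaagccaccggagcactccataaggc
CXCL6, chr4:73836528-73836677, plus strand: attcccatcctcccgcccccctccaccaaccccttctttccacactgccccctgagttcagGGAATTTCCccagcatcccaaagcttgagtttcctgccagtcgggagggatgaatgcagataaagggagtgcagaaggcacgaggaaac
CXCL1, chr4:73869243-73869392, plus strand: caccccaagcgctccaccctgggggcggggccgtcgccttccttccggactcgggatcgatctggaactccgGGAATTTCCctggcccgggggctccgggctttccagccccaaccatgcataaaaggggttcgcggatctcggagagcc
CXCL3, chr4:74038690-74038839, minus strand: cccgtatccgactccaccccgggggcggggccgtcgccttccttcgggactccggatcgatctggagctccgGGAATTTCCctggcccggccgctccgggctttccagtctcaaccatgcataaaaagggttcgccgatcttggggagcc
CXCL2, chr4:74099196-74099345, minus strand: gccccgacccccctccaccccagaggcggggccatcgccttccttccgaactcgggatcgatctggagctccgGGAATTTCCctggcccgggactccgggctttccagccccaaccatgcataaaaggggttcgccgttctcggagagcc

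The exact NF-kappaB letters were found in 0.253% of 35116 RefSeq promoter windows of the same length. They were in 5 members, all of them CXC chemokines on chromosome 4. Other forms of the NF-kappaB motif were not searched, so a member without a match may still hold one. A member was counted when any of its start sites had the motif. The counts of members therefore cannot be compared with the shares of windows. The NF-kappaB letters lay at -78 to -70 in CXCL1 and CXCL3 and at -77 to -69 in CXCL2. They lay at -89 to -81 in CXCL6 and at -91 to -83 in CXCL8. The AP-1 motif was in 4.17% of windows and in 8 members, among them IL11 at -96 to -90, CXCL8 at -137 to -131 and IL1A at -12 to -6 from the start shown. A STAT motif, TTCNNNGAA, was in 3.66% of windows and in 4 members, and its match in CXCL6 at -94 to -86 overlapped the NF-kappaB match. The windows of CXCL1, CXCL2 and CXCL3 were 86.1% to 88.7% identical to one another, while the other pairs of these 5 chemokines were 43.6% to 51.5% identical. A match of letters is a description of the sequence and not a measured site.

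Of the 58 members, 40 passed the filter on low counts and were tested. A gene was called when its adjusted p was below 0.05 and its absolute log2 fold change above 1. In the comparison, 14 members were called higher in UC3DDP (35.0% of those tested), against 17.6% of all 15120 genes tested, and 7 were called lower (17.5%), against 23.1%. In either direction, 21 members were called (52.5%), against 40.7% of all genes. With the GC adjustment, 9 were higher (22.5%, against 13.0% of all genes) and 6 lower (15.0%, against 14.8%), 15 in all (37.5%, against 27.9%). Both ways, 7 members were called higher and 4 lower, 10 were called without the adjustment alone and 4 with it alone. Without UC3DDP replicate 1, 12 members were called higher and 7 lower, and the share of all genes was not computed for that fit. The median log2 fold change was 0.14 over the tested members and 0.02 over all genes, or 0.06 and -0.04 with the adjustment. In 34 of the 40 (85.0%) the 3 UC3DDP libraries did not overlap the 3 UC3 libraries, which was the case for 83.7% of all genes tested. Of the members tested, 5 reached the count level of the filter in all 3 libraries of 1 line alone. These were IL1A, IL1RAPL1, IL17RE, IL7 and CCL5, and all 5 were called. They passed the filter through the line where they were higher, so these calls are not independent of it.

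**Figure D1:**
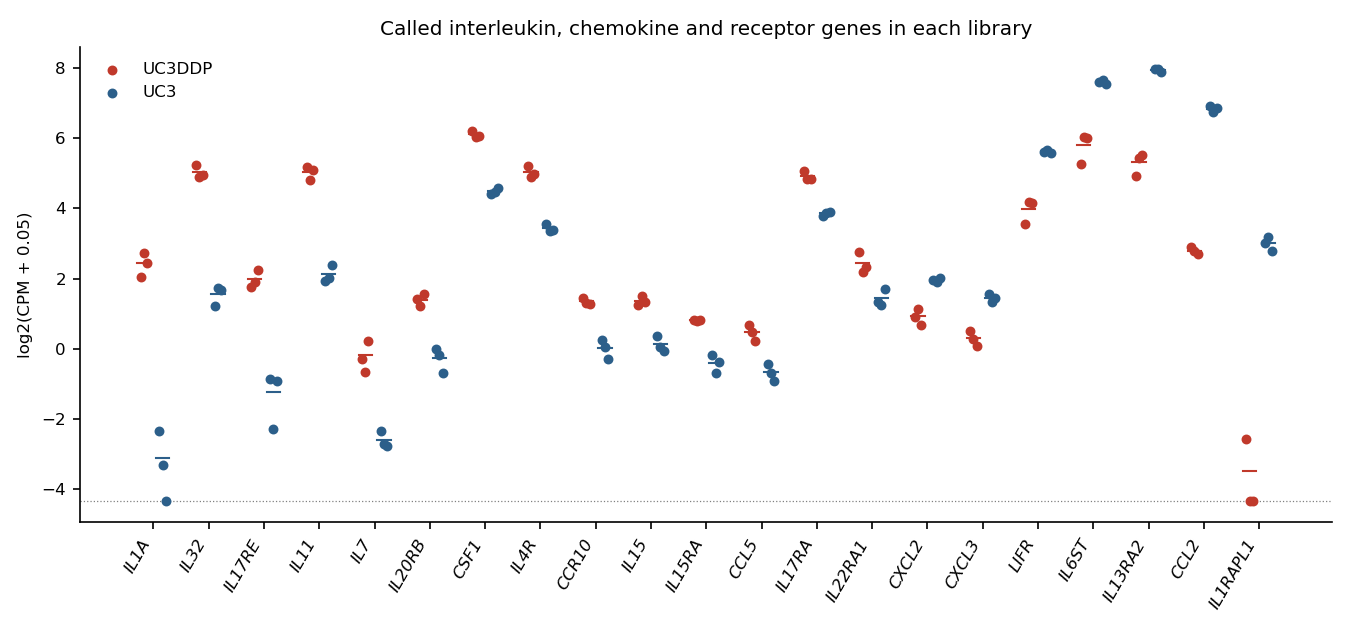
Level of each called member in each library, as log2(CPM + 0.05), with UC3DDP left of UC3 for each gene; points are the 3 libraries, short lines their means, and the dotted line marks 0 counts. The 21 genes separate the 2 lines without overlap, from IL1A and IL32 among the higher genes to CCL2 and IL1RAPL1 among the lower ones.

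**Figure D2:**
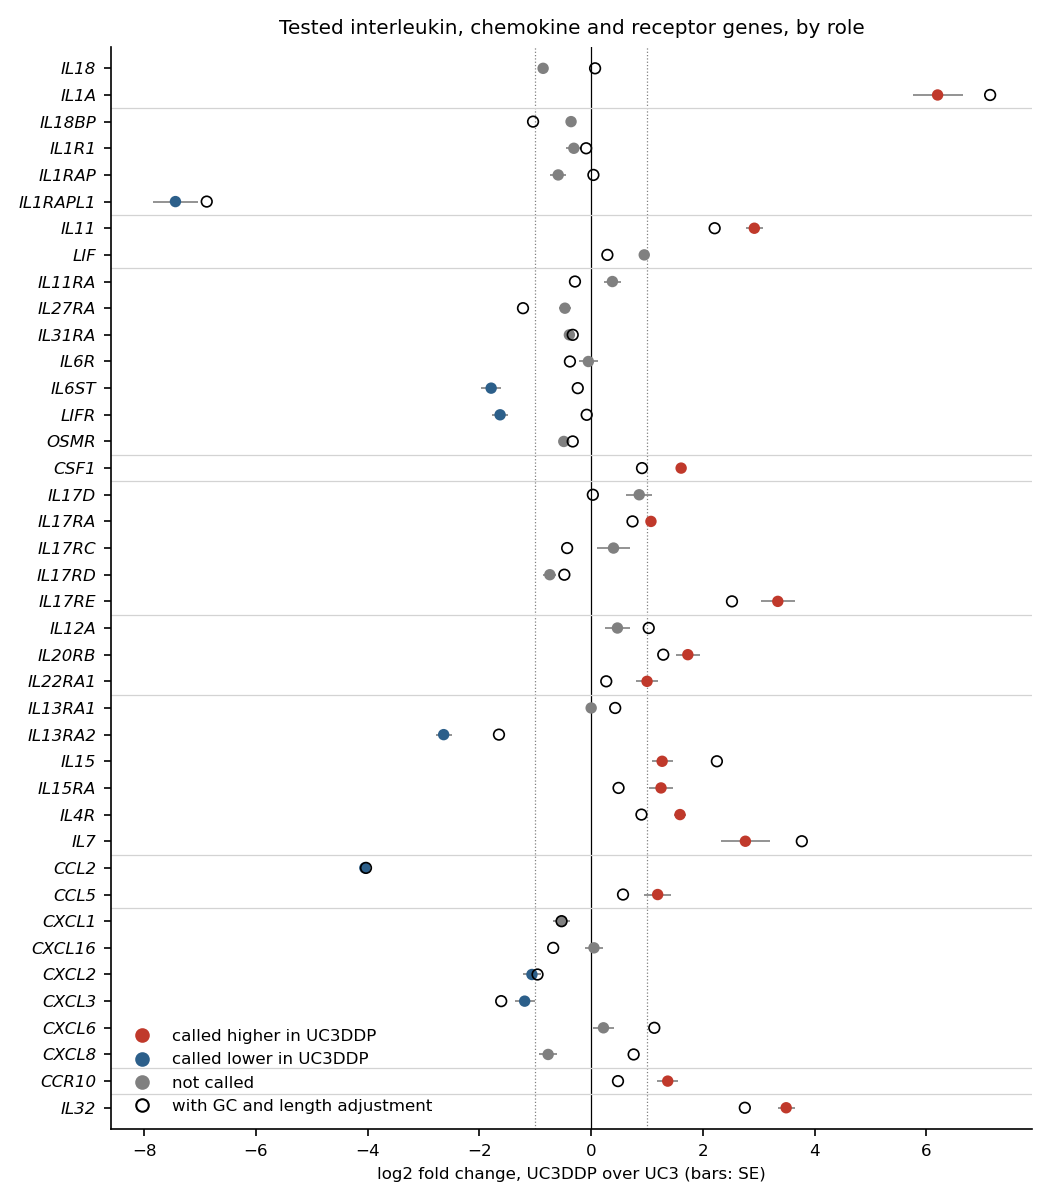
Log2 fold change of UC3DDP over UC3 for the 40 tested members, ordered by role between the grey lines; filled points with SE bars are the values without adjustment and open points the GC-adjusted values, and dotted lines mark the limit of 1 on either side. IL1A, IL11, IL32 and IL17RE lay above the limit both ways and CCL2, IL13RA2 and IL1RAPL1 below it both ways, while IL6ST and LIFR moved inside the limit with the adjustment.

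Among the ligands of the interleukin 1 family, IL1A rose and IL18 was not called. IL1A encodes an alarmin, a cytokine kept in the cell and released on damage, that signals through IL1R1 and its partner IL1RAP. It had 69, 114 and 91 counts in UC3DDP, against 3, 1 and 0 counts in UC3 (4.10, 6.63 and 5.39 CPM, against 0.149, 0.0517 and 0 CPM). The UC3 libraries were near the floor, and the ratio of the summed levels was 81.2 (exact 95% interval 31.3 to 300.0, counting error only). The log2 fold change was 6.20 (SE 0.446, edgeR adjusted p = 1.9e-06) and the GC-adjusted value 7.14. It was 7.39 without UC3 replicate 1, which held 3 of the 4 UC3 counts, and 5.63 to 6.37 without any other library. IL18, a cytokine that needs cleavage by caspase-1 to become active, had 22.7, 22.7 and 22.9 CPM in UC3DDP and 40.7, 39.9 and 43.1 CPM in UC3. The libraries did not overlap, but the log2 difference of -0.86 was inside the limit and the GC-adjusted value was 0.07.

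On the receiving side of that family, the subunits for interleukin 1 were not called. IL1R1, the signalling receptor, had 7.54 to 10.6 CPM in UC3DDP and 10.4 to 11.8 CPM in UC3 (log2 fold change -0.31, edgeR adjusted p = 0.0623). IL1RAP, the shared co-receptor, had 5.17 to 7.85 CPM in UC3DDP and 9.41 to 9.75 CPM in UC3, a log2 fold change of -0.59 and a GC-adjusted value of 0.04. IL18BP, a secreted antagonist of IL18, had 14.6 to 16.5 CPM in UC3DDP and 19.5 to 20.4 CPM in UC3. It had a log2 fold change of -0.36 and a GC-adjusted value of -1.04, which passed the limit, or -0.92 without UC3DDP replicate 1, which did not. The exons of IL18BP share 17.6% of their bases with NUMA1 on the opposite strand, and whether counting used strand is not stated.

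IL1RAPL1, a member of the receptor family known for organizing synapses, fell close to the floor. It had 2, 0 and 0 counts in UC3DDP, against 163, 174 and 143 counts in UC3. The ratio of the summed levels was 0.0049 (exact 95% interval 0.000596 to 0.0179), the log2 fold change -7.44 (SE 0.408, edgeR adjusted p = 5.4e-07) and the GC-adjusted value -6.88. Without UC3DDP replicate 1, the only library of that line with a count, the fitted value was -10.23, which depends on the prior count, and it was -7.54 to -6.93 without any other library.

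The interleukin 6 family signals through IL6ST, the chain known as gp130, and each ligand adds its own receptor chain. IL11, a ligand of this family known for roles in stroma and fibrosis, rose. It had 36.3, 27.7 and 34.3 CPM in UC3DDP, against 3.77, 4.03 and 5.19 CPM in UC3, so every UC3DDP library was above every UC3 library. This was a 7.55-fold difference (log2 fold change 2.92, SE 0.148, edgeR adjusted p = 3.8e-07), and the GC-adjusted value was 2.21. LIF, which acts through LIFR and IL6ST, had 92.5, 85.6 and 82.8 CPM in UC3DDP and 42.2, 47.4 and 45.4 CPM in UC3. Its log2 fold change of 0.95 was just inside the limit, and its GC-adjusted value was 0.29. IL11RA, the binding chain for IL11, was not called, at 4.80 to 7.07 CPM in UC3DDP and 4.07 to 4.65 CPM in UC3. It shares 32.5% of its exon bases with another annotated gene on the same strand.

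Of the 7 receptor genes of this family, IL6ST and LIFR fell, and neither call held with the GC adjustment. IL6ST had 38.1, 65.1 and 64.7 CPM in UC3DDP, against 192, 202 and 185 CPM in UC3 (log2 fold change -1.79, SE 0.181, edgeR adjusted p = 1.6e-05). LIFR had 11.6, 18.0 and 17.8 CPM in UC3DDP, against 48.7, 50.8 and 47.9 CPM in UC3 (log2 fold change -1.63, SE 0.145, edgeR adjusted p = 6.7e-06). In both genes UC3DDP replicate 1, the library with the steepest GC trend against the UC3 mean, was the lowest. Their GC-adjusted values were -0.24 and -0.08. OSMR, the receptor chain for oncostatin M, had 181 to 214 CPM in UC3DDP and 279 to 285 CPM in UC3, with a log2 fold change of -0.49 and a GC-adjusted value of -0.33. IL31RA, its partner in the receptor for interleukin 31, had 84.0 to 104 CPM in UC3DDP and 123 to 128 CPM in UC3, at -0.39 and, GC-adjusted, -0.33. IL6R, the binding chain for interleukin 6, had 1.98 to 2.79 CPM in UC3DDP and 2.28 to 2.64 CPM in UC3, and the lines overlapped. IL27RA, the receptor for interleukin 27, had 13.4 to 16.7 CPM in UC3DDP and 19.6 to 21.9 CPM in UC3. The log2 fold change was -0.47 and the GC-adjusted value -1.22, which passed the limit with and without UC3DDP replicate 1 (-1.24 without it).

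**Figure D3:**
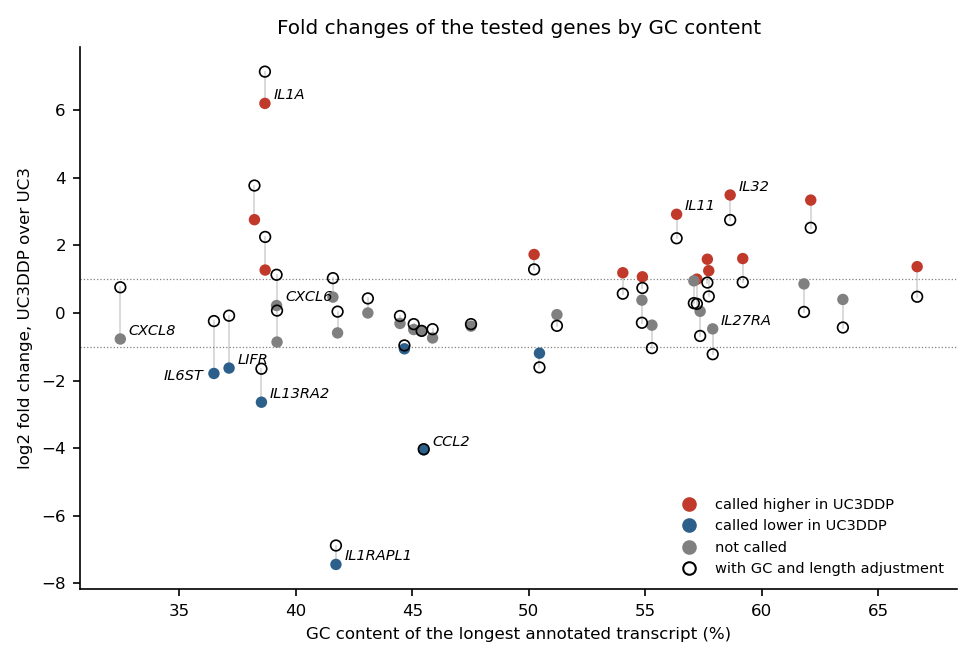
Log2 fold change of UC3DDP over UC3 for the 40 tested members against the GC content of the longest annotated transcript in percent; filled points are the values without adjustment, open points the GC-adjusted values of the same genes, joined by a line, and dotted lines mark the limit of 1. The adjustment moved genes of low GC content such as CXCL8, IL6ST and LIFR up and genes of high GC content such as IL27RA down, and left CCL2 at -4.03, against -4.05 without it.

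Of the colony-stimulating factors, CSF1, the growth factor of macrophages, was the gene tested, and it rose. It had 73.4, 65.6 and 67.2 CPM in UC3DDP, against 21.3, 22.0 and 24.0 CPM in UC3, with no overlap (3.06-fold, log2 fold change 1.61, SE 0.083, edgeR adjusted p = 4.1e-07). The GC-adjusted value was 0.91, inside the limit. CSF2, which encodes GM-CSF, was below the filter and had 30 counts over the UC3DDP libraries and 9 over the UC3 libraries, a ratio of 3.95 in scaled levels (exact 95% interval 1.83 to 9.46). IL34, the second ligand of the CSF1 receptor, had 13 counts in UC3DDP and 6 in UC3. IL3RA, the binding chain for interleukin 3, had 29 counts in UC3DDP and 5 in UC3, a ratio of 6.87 (2.63 to 22.7).

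In the interleukin 17 family, IL17RA and IL17RE rose and the other 3 tested members were not called. IL17RE, the partner of IL17RA in the receptor for IL17C on epithelial cells, had 3.33, 3.72 and 4.68 CPM in UC3DDP, against 0.496, 0.155 and 0.480 CPM in UC3. The log2 fold change was 3.34 (SE 0.300, edgeR adjusted p = 7.2e-06) and the GC-adjusted value 2.52. IL17RA, the chain shared by the receptors of this family, had 33.4, 28.6 and 28.6 CPM in UC3DDP, against 13.7, 14.6 and 14.8 CPM in UC3. The log2 difference was 1.07 (SE 0.090, edgeR adjusted p = 4.8e-06). It was 0.99, inside the limit, without UC3DDP replicate 1, and the GC-adjusted value was 0.74. IL17RD, which is also known as an inhibitor of fibroblast growth factor signalling, had 13.4 to 19.0 CPM in UC3DDP and 26.5 to 28.7 CPM in UC3 (log2 fold change -0.74). IL17D, a ligand, had 1.34 to 1.84 CPM in UC3DDP and 0.672 to 0.943 CPM in UC3 (log2 fold change 0.86, GC-adjusted 0.03), and 36.3% of its exon bases lie opposite another gene of the table. IL17RC, the partner of IL17RA for IL17A and IL17F, had 0.640 to 1.25 CPM in UC3DDP and 0.595 to 0.776 CPM in UC3 and was not called, and 46.5% of its exon bases are shared with another annotated gene on the same strand.

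In the interleukin 10, 12 and 20 families, IL20RB and IL22RA1 rose. IL20RB, a chain of the receptors for IL19, IL20 and IL24, had 2.61, 2.27 and 2.90 CPM in UC3DDP, against 0.943, 0.827 and 0.576 CPM in UC3 (log2 fold change 1.73, SE 0.218, edgeR adjusted p = 6.6e-05, GC-adjusted 1.29). IL22RA1, the epithelial chain of the receptor for IL22, had 6.65, 4.54 and 4.98 CPM in UC3DDP, against 2.48, 2.33 and 3.22 CPM in UC3. It sat on the limit, with a log2 fold change of 1.00 (SE 0.191, edgeR adjusted p = 9.4e-04), and was inside it at 0.82 without UC3DDP replicate 1, at 0.94 and 0.90 without UC3 replicates 1 and 2, and at 0.27 with the GC adjustment. IL20RA, the other chain for IL20, was too low to test: it had 29 counts in UC3DDP and 2 in UC3, a ratio of 17.2 (exact 95% interval 4.35 to 149). IL10RB, the partner of IL22RA1, had 32 counts in UC3DDP and 27 in UC3, and 21.6% of its exon bases are shared with a read-through gene. IL12A, a subunit of interleukins 12 and 35, had 1.34 to 1.90 CPM in UC3DDP and 0.913 to 1.29 CPM in UC3. The log2 difference was 0.47 (edgeR adjusted p = 0.0792) and its GC-adjusted value 1.03, or 0.97 without UC3DDP replicate 1.

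The interleukin 2, 4 and 7 families held the receptor chains for interleukins 4 and 13, and these moved in different directions. IL13RA2, which binds interleukin 13 tightly and is known as a decoy, fell. It had 30.0, 43.2 and 45.4 CPM in UC3DDP, against 252, 250 and 237 CPM in UC3, so that every UC3DDP library was far below every UC3 library. UC3DDP replicate 1 was the lowest. The mean was 6.23-fold higher in UC3 (log2 fold change -2.64, SE 0.144, edgeR adjusted p = 5.2e-07), and the GC-adjusted value was -1.65. IL4R, the chain that binds interleukin 4 and joins the signalling receptor for interleukin 13, rose. It had 36.6, 29.7 and 31.2 CPM in UC3DDP, against 11.8, 10.2 and 10.3 CPM in UC3 (3.02-fold, log2 fold change 1.59, SE 0.106, edgeR adjusted p = 1.3e-06), with a GC-adjusted value of 0.90, inside the limit. IL13RA1, which pairs with IL4R, had 31.9, 35.3 and 30.9 CPM in UC3DDP and 32.7, 32.8 and 32.4 CPM in UC3. The lines overlapped and the log2 fold change was 0.00 (edgeR adjusted p = 0.978, GC-adjusted 0.43).

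In the same families, IL15, IL15RA and IL7 rose. IL15, a survival factor of natural killer and memory T cells, had 2.32, 2.79 and 2.49 CPM in UC3DDP, against 1.24, 0.982 and 0.913 CPM in UC3 (log2 fold change 1.27, SE 0.187, edgeR adjusted p = 1.8e-04), and its GC-adjusted value was larger, 2.25. IL15RA, which presents IL15 to neighbouring cells, had 1.72, 1.69 and 1.72 CPM in UC3DDP, against 0.843, 0.569 and 0.721 CPM in UC3 (log2 fold change 1.25, SE 0.208, edgeR adjusted p = 3.9e-04, GC-adjusted 0.49). IL7, a survival factor of T cells, had 13, 10 and 19 counts in UC3DDP, against 3, 2 and 2 counts in UC3. The log2 difference was 2.76 (SE 0.432, edgeR adjusted p = 2.7e-04) and its GC-adjusted value 3.77. IL2RB, the untested chain shared by the receptors for interleukins 2 and 15, had 4 counts in UC3DDP and 15 in UC3, a ratio of 0.316 (exact 95% interval 0.0763 to 0.992).

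CCL2 fell. It encodes the chemokine that draws monocytes through CCR2 (chromosome 17, 34255218 to 34257203, plus strand, GRCh38). It had 7.42, 6.81 and 6.40 CPM in UC3DDP, against 119, 106 and 115 CPM in UC3, so that the lines were far apart in every library. The level was 16.5-fold higher in UC3 (log2 fold change -4.05, SE 0.096, edgeR adjusted p = 1.3e-08). The GC-adjusted value was -4.03, and leaving out each library in turn gave -4.10 to -3.99. CCL5, which draws T cells and monocytes, was low in both lines and rose, with 1.54, 1.34 and 1.13 CPM in UC3DDP, against 0.695, 0.569 and 0.480 CPM in UC3 (log2 fold change 1.19, SE 0.245, edgeR adjusted p = 0.0015, GC-adjusted 0.57). Below the filter, CCL20, the ligand of CCR6, had 3 counts in UC3DDP and 25 in UC3, a ratio of 0.142 (exact 95% interval 0.0275 to 0.466). CCL3L1, which belongs to a family of near-identical copies that can share reads, had 14 counts in UC3DDP and 6 in UC3.

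**Figure D4:**
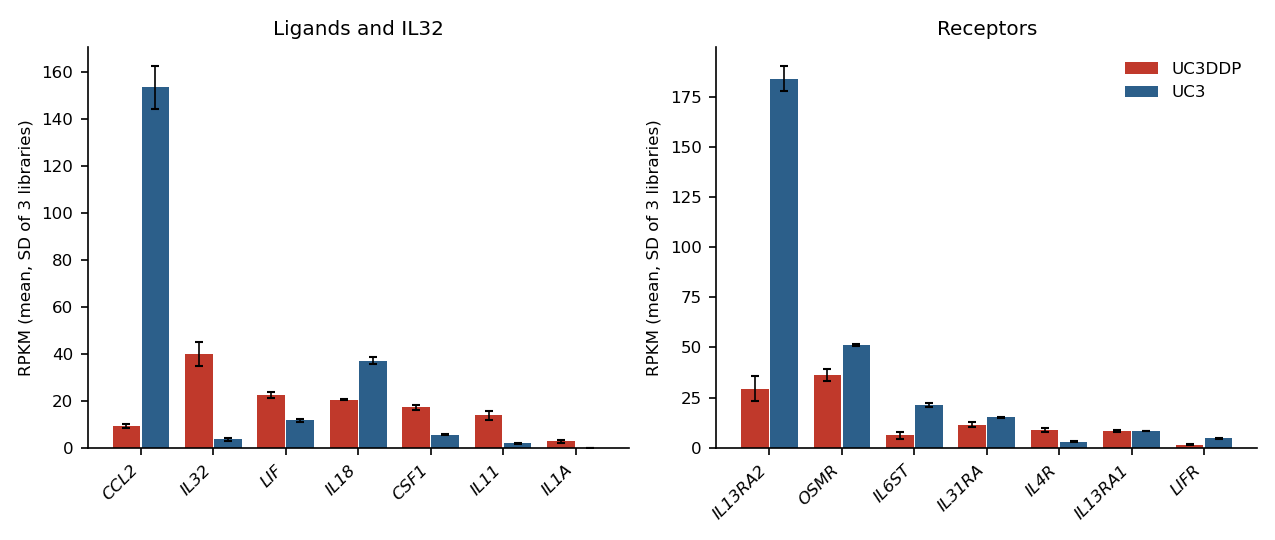
Mean level per length, in RPKM (CPM over the exon length in kilobases), of selected ligands with IL32 (left) and of receptors (right), with UC3DDP left of UC3 for each gene; bars start at 0 and error bars are the SD of 3 libraries. CCL2 and IL13RA2 were the highest of these genes in UC3, at 153 and 184 RPKM, while IL32 was the highest ligand shown in UC3DDP at 40.0 RPKM.

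Scaled per length, the order of the ligands differed between the lines. In UC3DDP, IL32 averaged 40.0 ± 5.07 RPKM, LIF 22.5 ± 1.29, IL18 20.4 ± 0.116, CSF1 17.2 ± 1.04, IL11 13.8 ± 1.89 and CCL2 9.28 ± 0.695 RPKM (SD, n = 3). In UC3, CCL2 averaged 153 ± 9.06 RPKM, IL18 37.0 ± 1.53, LIF 11.6 ± 0.677, CSF1 5.62 ± 0.349, IL32 3.55 ± 0.660 and IL11 1.82 ± 0.317 RPKM (SD, n = 3). Among the receptors shown, OSMR averaged 36.4 ± 3.12 RPKM in UC3DDP and 51.2 ± 0.562 RPKM in UC3, and IL13RA2 averaged 29.5 ± 6.22 RPKM in UC3DDP and 184 ± 6.23 RPKM in UC3.

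The chemokines that attract neutrophils through CXCR2, whose promoters are shown above, did not move as one. CXCL2 and CXCL3 fell. CXCL2 had 1.84, 2.15 and 1.54 CPM in UC3DDP, against 3.82, 3.67 and 4.04 CPM in UC3 (log2 fold change -1.06, SE 0.157, edgeR adjusted p = 1.9e-04). It was inside the limit at -0.94 without UC3DDP replicate 3 and at -0.96 with the GC adjustment. CXCL3 had 1.37, 1.16 and 1.01 CPM in UC3DDP, against 2.93, 2.48 and 2.69 CPM in UC3 (log2 fold change -1.19, SE 0.178, edgeR adjusted p = 2.0e-04, GC-adjusted -1.61). CXCL1 had 4.04, 4.01 and 2.90 CPM in UC3DDP and 5.31, 4.76 and 5.72 CPM in UC3, without overlap, and its log2 fold change of -0.53 was inside the limit with and without the adjustment. These 3 genes have similar sequences and can share reads.

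CXCL8, also known as interleukin 8, was not called and its direction depended on the adjustment. It had 2.91, 3.02 and 4.15 CPM in UC3DDP and 6.35, 5.22 and 5.57 CPM in UC3, with a log2 fold change of -0.77 (edgeR adjusted p = 0.0018). The GC-adjusted value was 0.76 (edgeR adjusted p = 6.6e-04), the opposite sign. CXCL6, which carries the same NF-kappaB letters, had 3.68, 2.62 and 3.20 CPM in UC3DDP and 2.33, 2.43 and 3.36 CPM in UC3, which overlapped. The log2 difference was 0.22 (edgeR adjusted p = 0.320) and its GC-adjusted value 1.13, or 0.90 without UC3DDP replicate 1. So the 5 genes that share the motif had log2 fold changes of -1.19 to 0.22, and GC-adjusted values of -1.61 to 1.13. CXCL16, a transmembrane chemokine that binds CXCR6, had 3.67 to 5.23 CPM in UC3DDP and 3.65 to 4.81 CPM in UC3, and its GC-adjusted value was -0.68.

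Outside this cluster, 3 chemokines were seen almost only in UC3DDP replicate 1, the library that stood apart. CXCL12, the ligand of CXCR4 made by stroma and endothelium, had 12, 0 and 0 counts in UC3DDP and 0, 0 and 0 counts in UC3. Against a floor of 3 counts over the UC3 libraries, its ratio was 4.74. The exact 95% lower bound, with counting error in both lines, was 3.29. All of its counts came from UC3DDP replicate 1, and without that library it was at 0 in both lines. CX3CL1, or fractalkine, had 14, 0 and 1 counts in UC3DDP and 0, 1 and 0 counts in UC3. CXCL14 had 15, 0 and 0 counts in UC3DDP and 2, 1 and 0 counts in UC3. CX3CL1 and CXCL14 are named after their values were seen. The same library was the highest in the endothelial markers PECAM1, KDR, CDH5 and VWF, but not in ESAM. PECAM1 had 47, 5 and 5 counts in UC3DDP and 4, 1 and 3 counts in UC3. KDR had 11, 0 and 2 counts in UC3DDP and 0, 0 and 0 counts in UC3. CDH5 had 9, 2 and 0 counts in UC3DDP and 2, 0 and 0 counts in UC3. ESAM had 6, 4 and 1 counts in UC3DDP and 6, 8 and 4 counts in UC3. VWF had 69, 34 and 32 counts in UC3DDP and 4, 1 and 1 counts in UC3. The VWF difference was therefore not confined to UC3DDP replicate 1.

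Chemokine receptors were few. CCR10, a receptor for CCL27 and CCL28, was the one tested and rose, with 2.67, 2.44 and 2.37 CPM in UC3DDP, against 1.14, 0.982 and 0.769 CPM in UC3 (log2 fold change 1.37, SE 0.192, edgeR adjusted p = 1.3e-04). The GC-adjusted value was 0.48, and 17.7% of its exon bases lie opposite CNTNAP1. CXCR4, the receptor for CXCL12, had 9, 2 and 3 counts in UC3DDP and 2 counts over the 3 UC3 libraries. CXCR5 had 24 counts in UC3DDP and 26 in UC3, and 91.2% of its exon bases lie opposite BCL9L, so that its counts cannot be assigned to it. ACKR2, a scavenger of CC chemokines, had 5 counts in UC3DDP and 7 in UC3.

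IL32, a human cytokine without a rodent counterpart whose receptor is not settled, rose. It had 37.5, 29.8 and 30.9 CPM in UC3DDP, against 2.28, 3.26 and 3.17 CPM in UC3. All UC3DDP libraries were above all UC3 libraries (11.3-fold, log2 fold change 3.49, SE 0.149, edgeR adjusted p = 1.8e-07), and the GC-adjusted value was 2.75. IL4I1, which the symbol rule also took, encodes a secreted amino acid oxidase and not an interleukin. It had 22 counts in UC3DDP and 5 in UC3, a ratio of 5.21 (exact 95% interval 1.93 to 17.6), and 13.5% of its exon bases are shared with NUP62.

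The 18 untested members had 11 to 59 counts over the 6 libraries. With no filter on low counts, 19 members were called higher and 9 lower, and the share of all genes was not computed for that fit. The additional calls were CSF2, IL3RA, IL20RA, CXCR4 and IL4I1 (higher) and IL2RB and CCL20 (lower). UC3DDP replicate 1 was the highest library for CXCR4 (9, 2 and 3 counts in UC3DDP) and IL3RA (15, 4 and 10 counts). The fit with no filter was not run without that library. IL10RA, IL23A and IL18R1 were not called in that fit either, with 3, 14 and 22 counts in UC3DDP and 8, 12 and 24 counts in UC3.

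Beside the members, 72 genes were listed, of which 56 were in the table and 52 were tested. They were signalling genes below these receptors and 23 related cytokines and receptors whose symbols fall outside the rule. Of the 52, 13 were called higher (25.0%, against 17.6% of all genes tested) and 11 lower (21.2%, against 23.1%). GC-adjusted, 7 were higher (13.5%, against 13.0%) and 6 lower (11.5%, against 14.8%). The median log2 fold change of the 52 was 0.34, against 0.02 over all genes. SOCS1, MYD88, CTF1, CNTF, EBI3, CSF2RA and CD74 reached the count level of the filter in every library of 1 line alone. All of these were called without the adjustment. They passed the filter through the line where they were higher, so these calls are not independent of it. The counts of single lists below stand beside the same shares of all genes. Of the 8 JAK and STAT genes tested, STAT3, the main transcription factor below IL6ST, rose to 417 ± 21.1 CPM in UC3DDP, against 177 ± 3.91 CPM in UC3 (SD, n = 3 each; log2 fold change 1.23, GC-adjusted 0.88). JAK2, a kinase that binds several cytokine receptors, fell to 5.46 ± 0.436 CPM in UC3DDP, against 31.1 ± 3.75 CPM in UC3 (log2 fold change -2.51, GC-adjusted -1.07). JAK1, the kinase most used with IL6ST, averaged 243 ± 38.7 CPM in UC3DDP and 233 ± 4.78 CPM in UC3 and was not called. STAT6, the factor below IL4R, had a log2 fold change of -0.47 and passed the limit with the adjustment at -1.11.

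Of the 11 suppressors of cytokine signals tested, 2 rose and 4 fell. GC-adjusted, 1 was higher and 1 lower, and the higher one was not among the 2 that rose. SOCS3, which binds IL6ST and JAK kinases, rose to 38.5 ± 3.84 CPM in UC3DDP, against 15.0 ± 0.298 CPM in UC3 (log2 fold change 1.36, GC-adjusted 0.57). PIAS1, a SUMO ligase, fell, with a log2 fold change of -2.33 and a GC-adjusted value of -1.28. SOCS1 rose at 1.87, and SOCS4, SOCS5 and SOCS6 fell at -1.96, -1.42 and -1.73, and none of these 4 calls held with the adjustment (0.98, -0.43, -0.21 and -0.42). PIAS2 was called with the adjustment alone (1.06, against -0.25 without it).

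Of the 13 genes of the interleukin 1 receptor pathway and inflammasome tested, 3 rose and 3 fell, and with GC content taken out 1 was called in each direction. MYD88, the adaptor through which the receptors for interleukins 1 and 18 signal, fell. It had 6, 3 and 5 counts in UC3DDP, against 71, 73 and 75 counts in UC3 (log2 fold change -3.69, SE 0.229, edgeR adjusted p = 9.5e-07, GC-adjusted -4.27). NLRP3, an inflammasome sensor, rose with a log2 fold change of 1.64 and a GC-adjusted value of 1.31. IRAK1, a kinase bound by MYD88, and GSDMD, the pore protein cleaved by inflammatory caspases, rose at 1.19 and 1.01 but were inside the limit with the adjustment (0.39 and 0.14). MAP3K7 and TAB3, a kinase and its partner below this receptor, fell at -1.30 and -1.38, with GC-adjusted values of -0.24 and -0.28.

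Of the 9 G protein, arrestin and receptor kinase genes, GRK2 and GRK5 rose (log2 fold changes 1.09 and 1.19) and GNAI1 and GNAI3 fell (-1.14 and -1.43), and 0 were called with the adjustment. Of the 11 tested cytokines and receptors whose symbols fall outside the rule, 5 rose and 1 fell, and GC-adjusted calls were 5 higher and 2 lower. CSF2RA, the binding chain for GM-CSF, had 284, 238 and 259 counts in UC3DDP and 1, 0 and 0 counts in UC3, a ratio of 925 (exact 95% interval 166 to 36591). CTF1, or cardiotrophin 1, a ligand of LIFR and IL6ST, had 64, 57 and 68 counts in UC3DDP and 0, 0 and 0 counts in UC3. Against a floor of 3 counts over the UC3 libraries, its ratio was 74.6. The exact 95% lower bound, with counting error in both lines, was 60.1. CD74, a receptor for the cytokine MIF and the invariant chain of MHC class II, had 387, 187 and 186 counts in UC3DDP and 6, 6 and 7 counts in UC3, and UC3DDP replicate 1 was the highest library. MIF itself averaged 28.9 ± 2.85 CPM in UC3DDP and 27.6 ± 1.25 CPM in UC3 (SD, n = 3 each) and was not called, with a log2 fold change of 0.07. EBI3, which pairs with IL12A in interleukin 35, had 21, 16 and 19 counts in UC3DDP and 1, 2 and 1 counts in UC3 (log2 fold change 3.92, GC-adjusted 3.16). CRLF2, the receptor chain for TSLP, rose at 2.50 (GC-adjusted 1.87), and CNTF, another ligand that uses LIFR and IL6ST, fell at -1.54 (GC-adjusted -1.39).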

How the data were processed

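RNA of 3 UC3DDP and 3 UC3 libraries was compared. Per the study's methods, a NEBNext kit was used, and the authors ran Fastp for trimming, HISAT2 for alignment (GRCh38) and featureCounts for counts per gene. No strand setting of the counting was found in the sources used here. The labels conflict: the series text names the line T24, the extraction text retinas and the submitters' processing notes a mouse build. Of the gene identifiers, 99.8% were found in GENCODE release 44 of the human genome. This cannot tell T24 from UC3, which are both human lines. The sample titles, which name UC3 and UC3DDP, were followed. The deposited counts are whole numbers per gene, not normalized, and the lowest gene total is 10 counts. Other deposited values are the exon length of each gene, from which RPKM was computed here, and the authors' own fold changes and p-values, which were not used.

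Counts were tested with edgeR 4.0.16 (R 4.3.3; TMM scaling, filterByExpr at a minimum count of 10 and total of 15, quasi-likelihood test, Benjamini-Hochberg adjustment over all 15120 genes), and calls needed an adjusted p below 0.05 and an absolute log2 fold change above 1, the limits of the study. SE is the absolute log2 fold change over the root of F. CPM are TMM-scaled. The GC adjustment was an offset per gene and library from loess trends (span 0.3, prior count 2) on the GC content and then the length of the longest GENCODE transcript. Alternatives were DESeq2 1.42.0, limma 3.58.1 (voom), other scalings, no filter, no fold limit, the replicate number as a block and each library left out. The GC adjustment without UC3DDP replicate 1 was added after seeing the data. The fit was tested on simulated data. Intervals are exact 95% Clopper-Pearson bounds, covering counting error only. Named with values were all called members, CCL2, IL1A, IL11, tested members averaging at least 1 CPM and untested members with 10 or more counts in 1 line and 0 in the other; IL17RC and untested members named otherwise were chosen after their values were seen. Of each signalling list, called members with the largest fold changes were named. Members and lists were chosen with earlier results of these data known.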

Additional observations from a re-analysis of the deposited data

How the results depend on the processing

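The counts of called members were 12 to 16 higher and 6 to 7 lower with each library left out in turn, and those of the signalling genes 12 to 13 higher and 10 to 12 lower. With the GC adjustment, 9 members were higher, also with the replicate block, and 8 without UC3DDP replicate 1. Of the signalling genes, 7 were higher and 6 lower in each of these 3 fits. With no fold limit, 17 members were higher and 16 lower, and 26 signalling genes were higher and 20 lower. The share of all genes called was not computed for the alternatives other than the GC adjustment itself. Their counts therefore cannot be set against all genes. Without the filter, 19 members were higher and 9 lower. IL22RA1 was inside the limit at 0.99 in DESeq2, in voom and with DESeq2 size factors, and no other member's call changed in these fits or with library totals.

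Sign changes were confined, among the members named with values and the alternatives run, to genes that were not called. With the GC adjustment, also with the block, and without UC3DDP replicate 1, the log2 fold change was 0.04, 0.04 and 0.07 for IL1RAP, -0.29, -0.29 and -0.37 for IL11RA, -0.68, -0.68 and -0.72 for CXCL16 and 0.76, 0.76 and 0.71 for CXCL8. It was 0.07 and, with the block, 0.08 for IL18, and -0.05 for IL17D with the adjustment and without UC3DDP replicate 1. IL13RA1 was at -0.01 in DESeq2, with its size factors and without any 1 UC3 library, and with each library left out it was at -0.07 to 0.05. In the same way IL6R was at -0.16 to 0.06, and CXCL16 at -0.07 (without UC3DDP replicate 1 or UC3 replicate 3) to 0.18. The cause of the changes under the adjustment was not tested.

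Same-numbered libraries of the lines did not deviate together (r = -0.047, -0.014 and -0.009 over genes for numbers 1, 2 and 3, against -0.028 to 0.042 for other pairs). This cannot exclude a shared culture or preparation, about which the labels say nothing. With the replicate block, the counts stayed at 14 and 7 members and at 13 and 11 signalling genes, and no call of a member named with values changed. Depth limits the 18 untested members, whose ratios rest on at most 59 counts over the 6 libraries.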
